A study of Mus musculus with 18 samples.

Results

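The proteasome genes of C2C12 myotubes were followed through silencing of the atypical MAP kinase Erk3 (gene Mapk6) or of its partner kinase Mk5 (gene Mapkapk5), with or without a palmitic acid load. Members were the protein-coding genes whose symbol starts with Psm, a letter from a to g and a number. The symbol rule found 51 genes, and 49 of them, out of 21772 genes kept in the whole table, reached the minimum of 10 counts in total. The 2 genes left out were Psma8 with 1 count and Psmb11 with 5 counts over all libraries, the subunits that mark the testis and the thymus. The kept members comprised 31 constitutive subunits (7 of the 20S alpha ring, 7 of the 20S beta ring, 6 ATPases and 11 non-ATPases of the 19S particle), the 5 genes of the immunoproteasome (Psmb8, Psmb9, Psmb10, Psme1 and Psme2), 3 other activators or inhibitors, 7 assembly chaperones and 3 genes that share only the symbol pattern or descend from a member (Psmc3ip, Psme3ip1 and Psme2b).

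C2C12 is an established mouse myoblast line that fuses into myotubes when serum is lowered. Confluent myoblasts received pools of siRNA against no target (siNtc), against Erk3 (siErk3) or against Mk5 (siMk5), and after 6 days of differentiation the myotubes were kept for 16 h without serum, either with 0.5 mM palmitic acid (PA) bound to bovine serum albumin or with the albumin vehicle alone (BSA). Each of the 6 combinations had 3 libraries, 18 in all, so every group had been transfected and every group, controls included, had albumin. The model is 1 cell line in culture with transient silencing, and the sources do not state whether the 3 libraries of a group came from separate cultures, so p-values measure the spread between these libraries. Total counts ranged from 13041979 to 28496727 with a median of 22417470, the shallowest library being siNtc BSA replicate 1. The share of counts on the ribosomal RNA gene Rn18s-rs5 was between 1.5% and 12.9%, and the 3 siMk5 BSA libraries held the top of that range, at 8.39% to 12.9%. Mapk6 fell by 1.20 and by 0.95 on the log2 scale in siErk3 under BSA and PA (false discovery rate, FDR, of edgeR's quasi-likelihood test 1.8e-14 and 1.2e-12). Mapkapk5 averaged 1.63 ± 0.42 CPM (TMM-normalised counts relative to library size, the level scale used throughout) in siMk5 BSA against 2.46 ± 0.13 in siNtc BSA, and 2.31 ± 0.13 against 3.24 ± 0.70 under PA (SD, n = 3), without overlap of the groups, and neither difference passed the test (FDR 0.469 in both media), so the mRNA data do not by themselves check the siMk5 labels. The study reported immunoblots that verified the silencing of both kinases, and a lower Erk3 protein level when Mk5 was silenced. No second siRNA set and no rescue is described for these libraries. Loss of a kinase and other effects of its siRNA pool therefore cannot be told apart here. All 8 muscle markers examined were measured, with a summed level of 10865 to 14952 CPM in every library.

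The proteasome is the protease that degrades proteins tagged with ubiquitin. Its barrel, the 20S core, is built of stacked alpha and beta rings, and 3 beta subunits (Psmb5, Psmb6 and Psmb7) carry the proteolytic sites. The 19S particle caps the core, recognises ubiquitin, removes it and unfolds the substrate with a ring of ATPases. Interferons induce alternative catalytic subunits, Psmb8, Psmb9 and Psmb10, which take the places of Psmb5, Psmb6 and Psmb7 in newly assembled cores, and an activator ring made of Psme1 and Psme2, and this immunoproteasome is known for producing peptides for presentation on MHC class I. In muscle the proteasome is best known for the turnover of contractile proteins during atrophy.

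Psmb8 and Psmb9 lie in the MHC region of chromosome 17 on either side of Tap1, a subunit of the peptide transporter that feeds MHC class I. In the coordinates of the count table (GRCm39), Psmb9 occupies chr17:34400961-34406738 on the minus strand and overlaps Tap1 on the other strand by 212 bases, and Psmb8 at chr17:34416695-34420428 starts 495 bases after the end of Tap1. Psme1 and Psme2 are also neighbours, with 5911 bases between them on chromosome 14. The promoter windows of 4 immunoproteasome genes, from RefSeq (300 bases each, mostly upstream of the start site), are shown because these genes differed most, or, for Psme1, least, across the groups described below. Capitals mark TTCNNNGAA, the pattern of gamma-activated sites, in Psmb8 and, on the minus strand of Psme1, the pattern of interferon regulatory factors, which is GAAA, any 2 bases and GAAA again.
Psmb8, GRCm38.p6 chr17:34197945-34198244, plus strand: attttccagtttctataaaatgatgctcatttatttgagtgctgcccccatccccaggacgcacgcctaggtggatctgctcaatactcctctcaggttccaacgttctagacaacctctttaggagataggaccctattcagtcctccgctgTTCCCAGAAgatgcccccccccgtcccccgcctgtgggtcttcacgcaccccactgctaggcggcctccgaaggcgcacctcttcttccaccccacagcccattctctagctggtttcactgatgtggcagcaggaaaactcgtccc
Psmb9, GRCm38.p6 chr17:34187281-34187580, minus strand: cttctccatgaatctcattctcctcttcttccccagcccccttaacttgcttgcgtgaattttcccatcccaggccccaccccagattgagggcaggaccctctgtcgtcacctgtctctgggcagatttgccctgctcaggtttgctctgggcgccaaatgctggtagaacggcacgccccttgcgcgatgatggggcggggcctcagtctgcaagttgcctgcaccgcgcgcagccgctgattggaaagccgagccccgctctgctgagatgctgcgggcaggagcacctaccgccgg
Psmb10, GRCm38.p6 chr8:105938343-105938642, minus strand: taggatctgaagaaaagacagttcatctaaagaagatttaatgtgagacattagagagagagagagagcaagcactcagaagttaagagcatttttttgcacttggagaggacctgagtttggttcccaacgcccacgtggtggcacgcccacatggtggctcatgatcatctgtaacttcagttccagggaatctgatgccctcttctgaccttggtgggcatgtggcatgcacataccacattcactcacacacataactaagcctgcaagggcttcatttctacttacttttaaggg
Psme1, GRCm38.p6 chr14:55578244-55578543, plus strand: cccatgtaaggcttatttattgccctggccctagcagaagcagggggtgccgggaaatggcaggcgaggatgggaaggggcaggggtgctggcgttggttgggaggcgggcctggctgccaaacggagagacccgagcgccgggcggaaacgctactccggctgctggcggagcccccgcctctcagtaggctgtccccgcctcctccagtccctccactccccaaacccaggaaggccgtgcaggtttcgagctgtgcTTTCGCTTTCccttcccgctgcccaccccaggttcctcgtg

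The search covered both strands and found the interferon regulatory factor pattern in 1 of the 5 immunoproteasome genes, Psme1, from position 10 when the start site is counted as 1. The same pattern was present in 3.44% of 32851 RefSeq promoters, and in 5 of the 42 members that had a window. TTCNNNGAA was present in Psmb8 from position -97, against 8.30% of all promoters and 3 of the 42 members. TGANNNNGC, the core pattern of Nrf1 and antioxidant sites, occurred in 24 of the 42 members and in 41.3% of all promoters, and CCAAT in 15 of the 42 and in 37.4%. The matches are descriptions of these windows only.

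The constitutive subunits were abundant and even, and the inducible catalytic subunits Psmb8 and Psmb9 were the lowest members per length. Levels per length (per kilobase) are given as TMM-normalised CPM divided by the exon length in the table. That length merges all annotated exons of a gene and can exceed the transcripts made, so the order of genes on this scale depends on it. The constitutive genes averaged between 23.6 (Psmd11, a lid subunit) and 120.4 (Psmc3, an ATPase) over the 18 libraries, with class medians of 46.7 for the alpha ring, 57.8 for the beta ring, 70.8 for the ATPases and 41.9 for the non-ATPases. Psme2 averaged 29.6 and Psme1 13.5 on this scale, followed by Psmb10 at 6.51, whereas Psmb8 at 0.70 and Psmb9 at 0.15 ranked 48 and 49 of the 49. Psmb8 also varied most, its highest library being 20.8 times its lowest, against 1.11 times for Psmb1 and at most 1.72 times for a constitutive gene (Psmd8). Psmb9 rested on few counts, 3 to 27 per library and 221 in total, and Psmb8 on 4 to 155 per library.

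**Figure D1:**
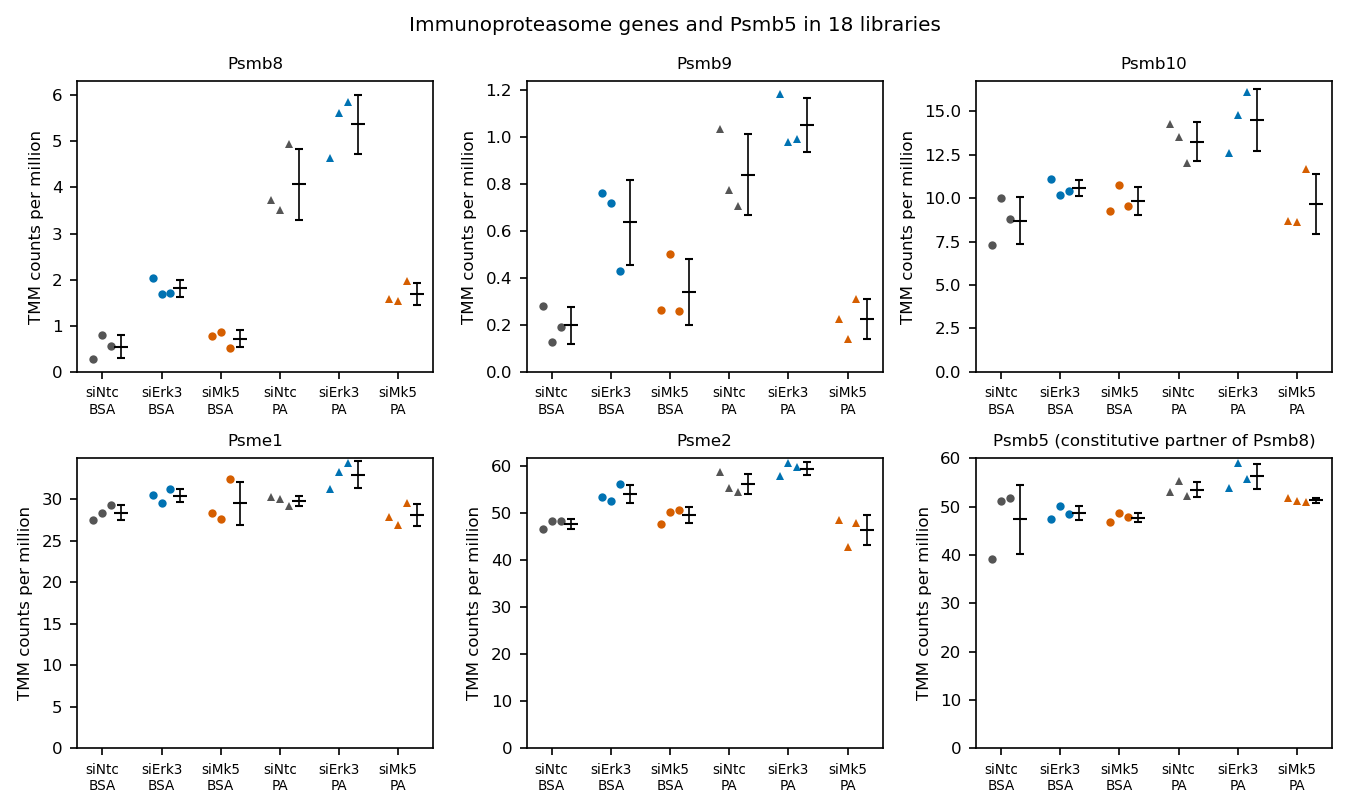
TMM-normalised CPM (vertical axis, linear, from 0) of the 5 immunoproteasome genes and of Psmb5 in the 6 groups on the horizontal axis, with 1 symbol per library (circles BSA, triangles PA) and the mean ± SD of 3 libraries as black bars. Psmb8 and Psmb9 were low in siNtc BSA, higher in siErk3 BSA and in siNtc PA and siErk3 PA. In siMk5 PA Psmb8 lay below siNtc PA and above siNtc BSA and Psmb9 overlapped siNtc BSA, while Psme1 and Psmb5 spanned narrow ranges.

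Under BSA, Psmb8 and Psmb9 were higher in siErk3 than in siNtc, the only members that passed the test. Psmb8, which carries the inducible chymotrypsin-like site, was measured at 0.28, 0.79 and 0.57 CPM in the siNtc libraries and at 2.03, 1.69 and 1.72 in the siErk3 libraries. Every siErk3 library lay above every siNtc library, as was the case for 11.5% of all genes. The difference was 1.61 ± 0.27 on the log2 scale (SE), or 3.06-fold, with FDR 0.00058 in edgeR's quasi-likelihood test. Psmb9, the inducible counterpart of Psmb6, was measured at 0.28, 0.13 and 0.19 CPM in siNtc, from 4, 3 and 4 counts, and at 0.76, 0.72 and 0.43 in siErk3, from 18, 17 and 12 counts. The groups did not overlap here either, and the difference of 1.72 ± 0.43 on the log2 scale (FDR 0.0411) passed the criteria used throughout, an FDR below 0.05 and a fold change above 1.3. The ratio of the summed Psmb9 counts, 47 against 11, was 3.37 with an exact 95% interval from 1.72 to 7.20 that covers counting error only.

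These 2 called members of 49 compare with 0.785% of all genes called in this comparison (0.588% higher). None of the 31 constitutive subunits was called by edgeR or by DESeq2 (1 had an unadjusted p under 0.05), and their log2 differences ran from -0.11 (Psmd4, a ubiquitin receptor) to 0.09 (Psmb2) with a median of -0.00, against 0.02 over all genes. Psmb10, the third inducible catalytic subunit, read 7.31, 10.0 and 8.80 CPM in siNtc and 11.1, 10.2 and 10.4 in siErk3, a log2 difference of 0.26 ± 0.12 that did not pass (FDR 0.429), as was the case for Psme2 (0.18 ± 0.05, FDR 0.121) and Psme1 (0.10 ± 0.06, FDR 0.635). The 5 immunoproteasome genes were all above 0, and 4 of them had an unadjusted p under 0.05. The call of Psmb9 was lost with DESeq2 (adjusted p 0.0961), with only the 6 libraries compared (FDR 0.0637) and without any 1 of 5 libraries (siNtc replicates 1, 2 and 3, siErk3 replicates 1 and 2, with FDR from 0.0511 to 0.251), at log2 differences of 1.45 to 1.98. The call of Psmb8 held without each of the 6 libraries, at 1.39 to 2.00.

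Immune cells carry the immunoproteasome without induction, so their markers were read beside these values. Of the 6 markers, Adgre1 had 0 counts in all 18 libraries, Ptprc 2 and Cd3e 7, and Cd68, Itgam and Csf1r passed the count minimum. The 3 together reached 1.39 to 2.15 CPM in siErk3 BSA and 1.94 to 2.13 in siNtc BSA, ranges that overlapped, and none of the 3 passed the test (smallest FDR 0.734). The ribosomal share was 1.5% to 2.96% in siErk3 BSA and 2.56% to 7.17% in siNtc BSA, and leaving Rn18s-rs5 out of the totals left the same number of members called. Of the 8 muscle markers, Myh3 and Myh8 rose in siErk3 BSA by 0.39 and 0.57 on the log2 scale, and whether the state of the myotubes plays a part was not tested. In bulk RNA, more cells that express a gene and more RNA of it per cell cannot be told apart.

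The same silencing under PA called no member. Psmb8 read 3.73, 3.51 and 4.95 CPM in siNtc PA and 4.64, 5.61 and 5.86 in siErk3 PA, so that the groups overlapped, with a log2 difference of 0.41 ± 0.15 and an FDR of 0.389, the smallest among the 49. Psmb9 differed by 0.31 ± 0.29. All 5 immunoproteasome genes were above 0, from 0.08 (Psme2) to 0.41 (Psmb8). The count of 0 was the same with DESeq2, 2 members had an unadjusted p under 0.05, and 0.556% of all genes were called.

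Silencing of Mk5 under BSA called no member with either edgeR or DESeq2 (2 had an unadjusted p under 0.05), in a comparison where 0.0643% of all genes were called. Psmb8 stood at 0.78, 0.86 and 0.52 CPM in siMk5 BSA and Psmb9 at 0.26, 0.50 and 0.26, overlapping the siNtc libraries in both cases. As in siErk3 BSA, the log2 differences of the 5 immunoproteasome genes were all above 0, here with 0 at an unadjusted p under 0.05. The constitutive subunits lay between -0.11 (Psma5) and 0.04 (Psmb2) on the log2 scale.

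Under PA the 3 inducible catalytic subunits were lower in siMk5 than in siNtc. Psmb8 was measured at 1.57, 1.54 and 1.96 CPM in siMk5 PA, less than each of the siNtc PA libraries, and fell by 1.26 ± 0.19 on the log2 scale (2.40-fold, FDR 8.9e-05). Psmb9 was measured at 0.22, 0.14 and 0.31 CPM, from 5, 3 and 6 counts, against 1.03, 0.78 and 0.71 in siNtc PA, from 23, 17 and 14 counts. It fell by 1.90 ± 0.40 (FDR 0.00845), and the ratio of the summed counts, 14 to 54, was 0.263 with an exact 95% interval from 0.135 to 0.480. Psmb10, at 8.67, 8.62 and 11.7 CPM against 14.3, 13.5 and 12.03, fell by 0.47 ± 0.11 (FDR 0.0371). The siMk5 libraries lay below the siNtc libraries for these 3 genes, as for 6.09% of all genes.

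For the activator pair, Psme2 stood at 48.5, 42.8 and 47.7 CPM in siMk5 PA against 58.6, 55.3 and 54.4 in siNtc PA, a log2 difference of -0.28 ± 0.05 that passed the FDR (0.00335) and not the fold criterion, and Psme1 differed by -0.09 ± 0.06 (FDR 0.902). The 3 called members of 49 compare with 0.547% of all genes called (0.491% lower). The 31 constitutive subunits lay between -0.06 (Psmb5) and 0.08 (Psmb6), and none was called with edgeR or DESeq2 or had an unadjusted p under 0.05. Psmb8 stayed called without each library, at -1.38 to -1.10, whereas Psmb9 was not called without siNtc PA replicate 1 (-1.71, FDR 0.0859) or siMk5 PA replicate 2 (-1.65, FDR 0.114). Psmb10 was not called with the stricter edgeR filter (FDR 0.0594), with only the 6 libraries compared (FDR 0.105) or without siNtc PA replicate 1 or 2 or siMk5 PA replicate 1 or 2 (FDR from 0.163 to 0.342). The summed immune markers were 1.65 to 2.05 CPM in siMk5 PA and 1.52 to 1.98 in siNtc PA, overlapping ranges.

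**Figure D2:**
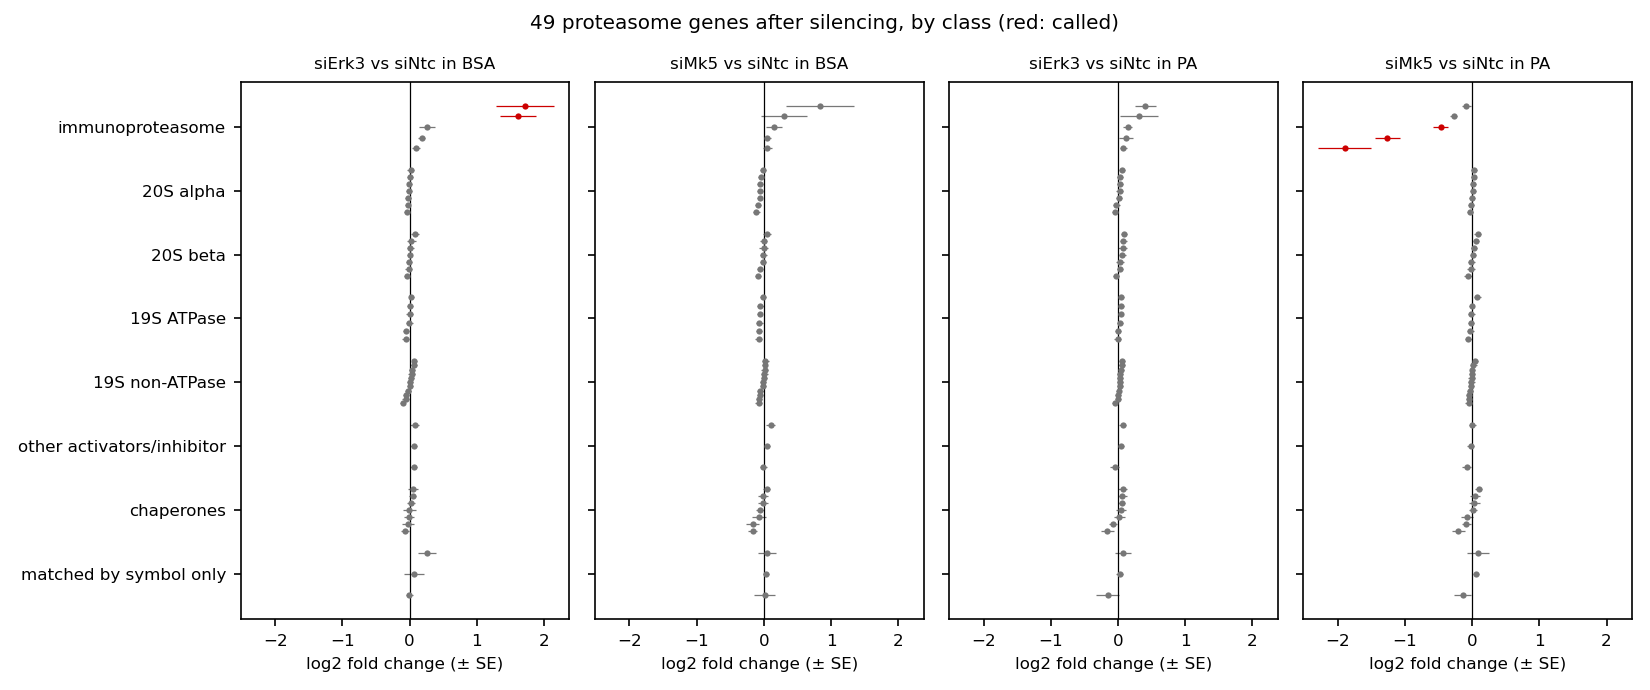
Log2 fold changes (horizontal axis, points with SE) of the 49 members, arranged by class on the vertical axis, in the 4 comparisons of silencing with siNtc, called members in red. Psmb8 and Psmb9 are red on the right for siErk3 in BSA, Psmb8, Psmb9 and Psmb10 are red on the left for siMk5 in PA, and the constitutive classes stay within 0.11 of 0 in every panel.

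The silencings of Erk3 and Mk5 were also compared directly. Under BSA, Psmb8 was 2.49-fold higher in siErk3 than in siMk5 (log2 1.31 ± 0.26, FDR 0.00417), the only member called, with 0.588% of all genes called. Under PA, where 1.03% of all genes were called, Psmb8 was 3.18-fold (1.67 ± 0.18, FDR 8.6e-08), Psmb9 4.63-fold (2.21 ± 0.38, FDR 0.000312) and Psmb10 1.51-fold (0.59 ± 0.11, FDR 0.00121) higher in siErk3. Psme2 differed by 0.36 ± 0.05 with an FDR of 3.6e-05 and a fold of 1.28, just short of the fold criterion. These comparisons reuse the libraries of those above and are not independent of them.

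With PA, Psmb8 had the highest log2 difference of the 49 members in siNtc, siErk3 and siMk5 alike. In siNtc myotubes Psmb8 went from 0.28, 0.79 and 0.57 CPM under BSA to 3.73, 3.51 and 4.95 under PA, a difference of 2.77 ± 0.24 on the log2 scale (6.84-fold, FDR 2.7e-11). Psmb9 rose by 2.15 ± 0.42 (FDR 7.4e-05) and Psmb10 by 0.59 ± 0.12 (FDR 8.8e-05). Psme2 was higher by 0.23 ± 0.05 (FDR 0.000513, below the fold criterion) and Psme1 by 0.07 ± 0.06 (FDR 0.432). The members called numbered 12 higher and 1 lower of 49, in a comparison that called 15.5% of all genes higher and 15.1% lower.

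Most constitutive subunits were also higher with PA at the FDR alone, by smaller differences than Psmb8 and Psmb9. Of the 31 constitutive genes 24 were higher and 1 was lower at the FDR alone, where 23.9% of all genes were higher and 21.2% lower, 6 did not pass, and 30 of the 31 log2 differences were above 0 with a median of 0.21 against -0.03 over all genes. Their summed level was 4127 to 4257 CPM in siNtc BSA and 4818 to 5002 in siNtc PA. Only 4 of the 31 also passed the fold criterion, where 15.5% of all genes were called higher. Psmd11, which helps assemble the 26S complex, read 121, 121 and 123 CPM under BSA and 177, 177 and 190.4 under PA and rose by 0.58 ± 0.05 (FDR 1.2e-11). Psmd8, a lid subunit, read 136, 142 and 141 against 195, 199.7 and 211 and rose by 0.53 ± 0.05. Psmd14, the deubiquitinase of the lid, rose by 0.41 ± 0.05 and Psma1 of the alpha ring by 0.40 ± 0.05. Psmd14 fell short of the fold criterion without siNtc BSA replicate 2 or siNtc PA replicate 3 (0.34 to 0.35), and Psma1 without siNtc BSA replicate 1 or 2 or siNtc PA replicate 3 and with the stricter edgeR filter (0.34 to 0.37). The PA libraries of these 4 genes lay above the BSA libraries, as for 26.9% of all genes.

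The classes of the barrel and cap are given side by side, without a test between them. The non-ATPases had a median of 0.31 with 10 of 11 past the FDR, the alpha ring 0.26 with 6 of 7, the beta ring 0.16 with 4 of 7 and the ATPases 0.14 with 4 of 6 higher and 1 lower. The lower ATPase was Psmc3, the most abundant member per length, at 334, 338 and 347 CPM under BSA and 293, 284 and 288 under PA (-0.24 ± 0.04, FDR 7.1e-06, below the fold criterion). The constitutive counterparts of the inducible subunits stood at 0.16 ± 0.07 (Psmb5, FDR 0.0467), 0.05 ± 0.05 (Psmb6, FDR 0.479) and 0.10 ± 0.04 (Psmb7, FDR 0.0856). Beyond the core and cap, PA raised Psme3, the nuclear activator (0.51 ± 0.05), the chaperones Psmd5 (0.55 ± 0.05) and Psmg4 (0.44 ± 0.09), and Psme3ip1 (0.50 ± 0.05) and Psme2b (0.47 ± 0.13) of the genes matched by symbol, and it lowered Psmc3ip (-0.42 ± 0.16), a recombination factor whose call was lost with DESeq2 (adjusted p 0.0511) and without siNtc BSA replicate 3 or siNtc PA replicate 2 or 3 (FDR from 0.0644 to 0.162). Psme2b fell short of the fold criterion without siNtc BSA replicate 1 or siNtc PA replicate 1 (0.33 to 0.36). Psme2b closely resembles Psme2, so reads of the pair may be exchanged.

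**Figure D3:**
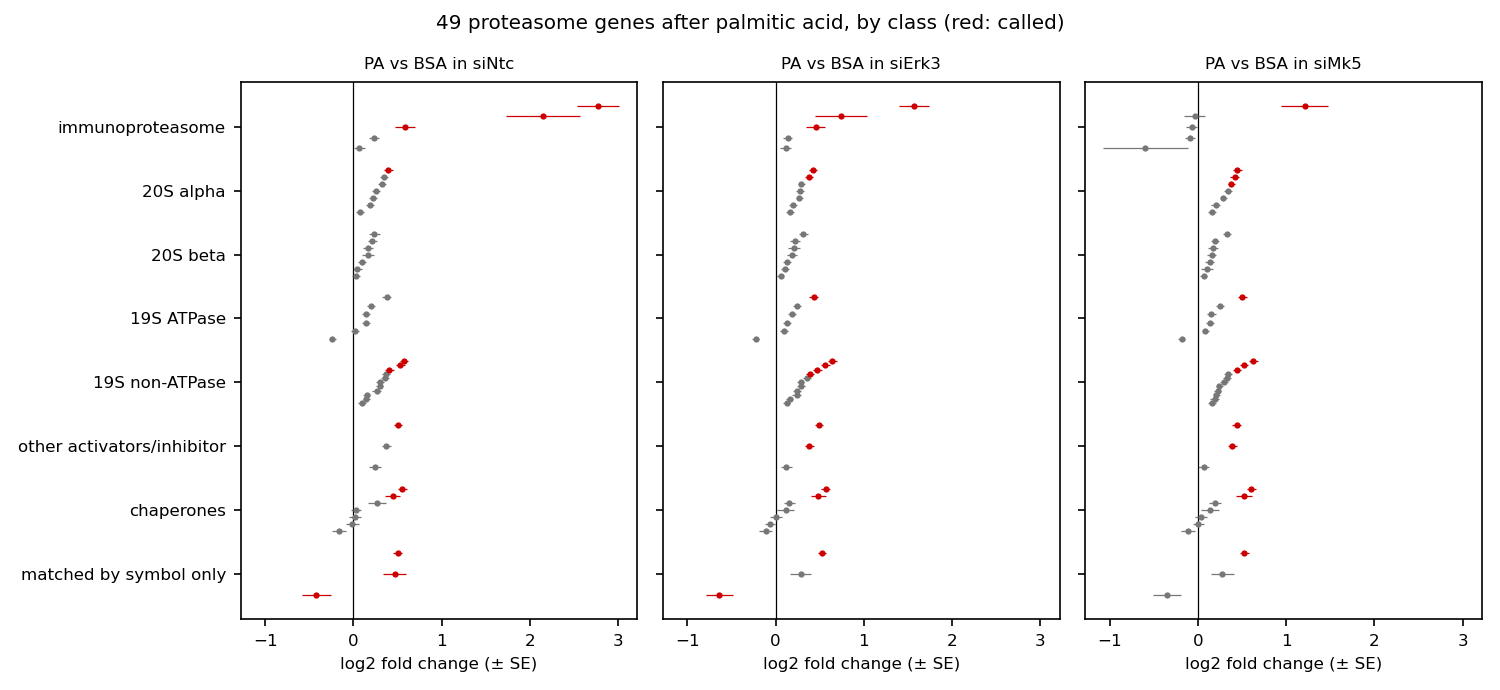
Log2 fold changes (horizontal axis, points with SE) of the 49 members by class (vertical axis) for PA against BSA in siNtc, siErk3 and siMk5 myotubes, called members in red. The constitutive classes lie mostly to the right of 0 in all 3 panels, and the immunoproteasome genes reach 2.77 in siNtc, 1.57 in siErk3 and 1.21 in siMk5.

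At the FDR alone most constitutive subunits were also higher with PA in both silenced cultures. Of the 31, 28 were higher and 1 lower in siErk3, and 27 and 1 in siMk5. Of all 21772 genes, 5251 were higher and 5014 lower in siErk3, and 5100 and 4553 in siMk5. With the fold criterion added, 7 of the 31 were called higher in each culture. That share is near those of the 15040 genes kept by the stricter edgeR filter, 3177 higher in siErk3 and 3043 in siMk5. Of the inducible subunits, PA raised Psmb8, Psmb9 and Psmb10 in siErk3 and Psmb8 in siMk5. In siErk3, 15 members were called higher and 1 lower (15.8% and 16.3% of all genes), and the constitutive median was 0.24. Psmb8 rose by 1.57 ± 0.17 (FDR 3.3e-09), Psmb10 by 0.45 ± 0.11 (FDR 0.00062) and Psmb9 by 0.74 ± 0.29 (FDR 0.0381), a call that was lost with DESeq2 (adjusted p 0.129), without the count filter (FDR 0.0509) and without siErk3 BSA replicate 3 or any of the siErk3 PA libraries (FDR from 0.0583 to 0.218). Psmb10 fell short of the fold criterion without siErk3 PA replicate 3 (0.36). The member called lower in siErk3 was Psmc3ip (-0.64, and -0.81 to -0.52 with single libraries left out). DESeq2 also called 1 member lower in siErk3. In siMk5 Psmc3ip stood at -0.35 and was not called. The constitutive genes called in siErk3 were Psmc6 (0.43), Psma5 (0.42), Psmd7 (0.39), Psmd8 (0.64), Psmd11 (0.56), Psmd14 (0.47) and Psma1 (0.38). In siMk5 the 13 members called were all higher, against 15.1% of all genes, and 7 of them were constitutive, Psmd8 (0.63), Psmd11 (0.53), Psmc6 (0.50), Psma5 (0.45), Psmd14 (0.44), Psma1 (0.42) and Psma7 (0.38). Several of these lay near the fold criterion and fell short of it in other fits. In siErk3, Psma1 did so without siErk3 BSA replicate 2 or 3 or any siErk3 PA library. Psma5 did so without siErk3 PA replicate 1 or 2, and Psmd7 without replicate 1 or 2 of siErk3 BSA or PA. In siMk5, Psma7 fell short with DESeq2, its size factors, the stricter edgeR filter, no Rn18s-rs5 or only the compared libraries. It also fell short without siMk5 PA replicate 1 or 3. The chaperone Psmd5 stood at 0.57 in siErk3 and 0.61 in siMk5 and the activator Psme3 at 0.49 and 0.44, all called. A further activator, Psme4, was called at 0.38 in siErk3 and 0.39 in siMk5. In siErk3 it fell short of the fold criterion without BSA replicate 1 or 2 or PA replicate 1 (0.31 to 0.37). In siMk5 it did so with DESeq2, its size factors or only the compared libraries, or without BSA replicate 3 or PA replicate 1. Also in siMk5, Psmb8 rose by 1.21 ± 0.27 (FDR 0.000324), from 0.78, 0.86 and 0.52 to 1.57, 1.54 and 1.96 CPM. Psmb9 (-0.59 ± 0.48, FDR 0.349) and Psmb10 (-0.03 ± 0.12, FDR 0.853) did not pass there.

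The difference between the PA effects was tested as an interaction. The PA effect minus that in siNtc was estimated at -1.21 ± 0.32 in siErk3 and -1.56 ± 0.39 in siMk5 for Psmb8, and at -1.41 ± 0.53 and -2.74 ± 0.65 for Psmb9, on the log2 scale. None of the 49 members passed in either interaction with edgeR, where 0.0367% and 0.211% of all genes were called. The smallest FDR was 0.306 in siErk3 (Psmb8) and 0.0662 in siMk5 (Psme2), with 3 and 4 members at an unadjusted p under 0.05. DESeq2 called Psmb8 in the siMk5 interaction (adjusted p 0.0442), and without the count filter edgeR called Psmb8 in both (FDR 0.0328 and 0.0112) and Psmb9 and Psmb10 in siMk5 (FDR 0.0167 and 0.00494). Without siMk5 PA replicate 3, edgeR called Psmb10 in the siMk5 interaction (FDR 0.0301). Both interactions share the siNtc libraries.

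The balance of inducible over constitutive subunit was read within each library as a ratio of counts per length, which no library scaling can move. The lengths are merged exons, 3381 bases for Psmb8 against 899 for Psmb5 and 3660 for Psmb9 against 1872 for Psmb6. For Psmb10 and Psmb7 they are 1705 and 3421 bases. The percentages depend on these lengths, and the log2 differences between groups do not. Psmb8 amounted to 0.313% ± 0.104 of Psmb5 in siNtc BSA, 1.00% ± 0.129 in siErk3 BSA, 0.414% ± 0.098 in siMk5 BSA, 2.04% ± 0.438 in siNtc PA, 2.55% ± 0.255 in siErk3 PA and 0.889% ± 0.127 in siMk5 PA (SD, n = 3 each). The order of these means placed siNtc and siMk5 under BSA lowest, with overlapping libraries, and siNtc and siErk3 under PA highest, again overlapping. Psmb9 relative to Psmb6 ran from 0.093% in siMk5 PA and 0.094% in siNtc BSA to 0.403% in siErk3 PA. Psmb10 relative to Psmb7 ran from 12.8% in siNtc BSA to 20.4% in siErk3 PA, with 13.2% in siMk5 PA.

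Between siErk3 BSA and siNtc BSA the log2 ratio differed by 1.72 ± 0.30 for Psmb8, by 1.57 ± 0.46 for Psmb9 and by 0.33 ± 0.13 for Psmb10 (SE), and between siMk5 PA and siNtc PA by -1.19 ± 0.21, -1.92 ± 0.32 and -0.48 ± 0.19. The groups did not overlap in these comparisons except for Psmb10 in siMk5 PA. A two-sided exact permutation test of 3 against 3 libraries cannot give less than p = 0.1, the value reached wherever groups did not overlap, and 0.175 after adjustment over the 21 comparisons made. The reading of Psmb5 is uncertain for 12.1% of its exonic bases, which the small RNA gene Mir686 shares on the same strand.

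**Figure D4:**
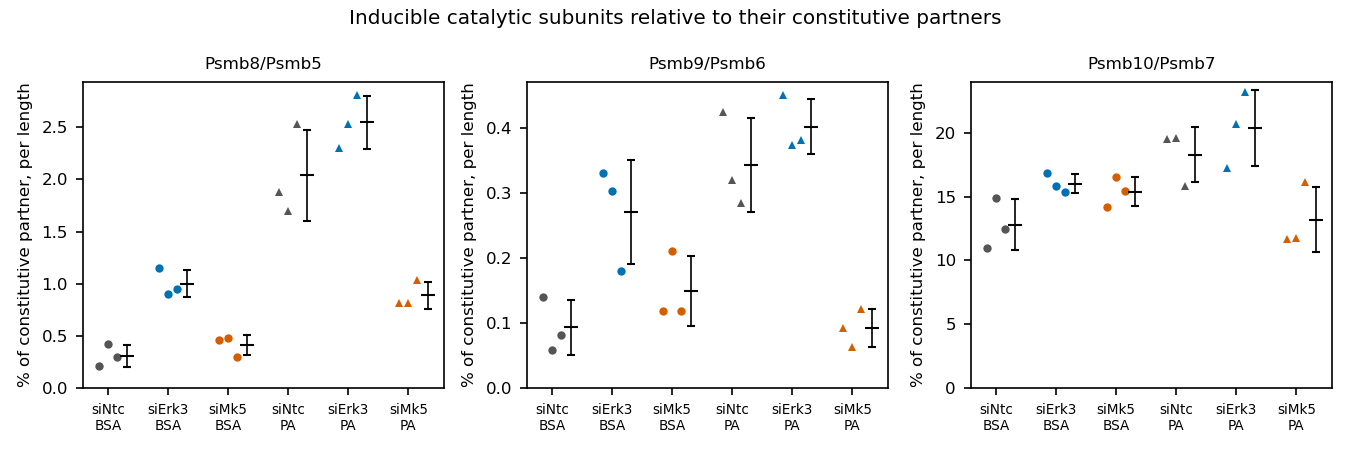
Level of Psmb8, Psmb9 and Psmb10 per length as a percentage of Psmb5, Psmb6 and Psmb7 (vertical axes, from 0) in each library of the 6 groups, with mean ± SD of 3 libraries as black bars. The Psmb8 share is 0.313% in siNtc BSA, about 1.00% in siErk3 BSA, above 2% on average in siNtc PA and siErk3 PA and 0.889% in siMk5 PA.

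The partners of the immunoproteasome in antigen processing were a list of 11 genes that are not members. In siErk3 BSA 6 of 11 rose, against 0.588% of all genes, namely the MHC class I heavy chains H2-K1 (0.79 ± 0.07) and H2-D1 (0.44 ± 0.06), their light chain B2m (0.52 ± 0.05), the transporter subunit Tap1 (0.69 ± 0.16) and the interferon factors Irf9 (0.59 ± 0.11) and Stat2 (0.46 ± 0.08). The call of Tap1 was lost without siNtc BSA replicate 2 or 3 or siErk3 BSA replicate 1 or 3 (FDR from 0.0543 to 0.190). H2-K1 read 57.3, 71.9 and 67.9 CPM in siNtc BSA and 122, 109 and 112 in siErk3 BSA. In siErk3 PA, where no member was called, 2 rose, against 0.432% of all genes, H2-K1 (0.46 ± 0.07) and Nlrc5, the transactivator of MHC class I genes (0.93 ± 0.11). In siMk5 BSA edgeR and DESeq2 called 0 of 11, and 0 had an unadjusted p under 0.05.

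In siMk5 PA 5 of 11 fell, against 0.491% of all genes, Tap1 (-0.93 ± 0.12), Stat2 (-0.58 ± 0.06), Tap2 (-0.48 ± 0.08), Tapbp, which loads peptides onto MHC class I (-0.42 ± 0.07), and Irf9 (-0.40 ± 0.09). Irf9 was not called without siNtc PA replicate 1 or 3 or siMk5 PA replicate 2 (FDR from 0.0511 to 0.184), and Tapbp fell short of the fold criterion without siNtc PA replicate 1 or siMk5 PA replicate 2 (-0.38 in both). Tap1 read 9.53, 7.36 and 8.51 CPM in siMk5 PA and 16.8, 14.5 and 17.3 in siNtc PA, without overlap. With PA in siNtc 7 of 11 rose, against 15.5% of all genes, among them Nlrc5 (3.12 ± 0.19), Stat2 (2.32 ± 0.07), Tap1 (2.29 ± 0.14) and Irf9 (2.16 ± 0.10). With PA 8 of 11 rose in siErk3, against 15.8% of all genes, and 6 rose, against 15.1%, and 1 (Tapbp) fell in siMk5. Between siErk3 and siMk5 under PA all 11 were called higher in siErk3, where 1.03% of all genes were called in either direction. The list was chosen with earlier results of these data known, and these counts are a description.

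**Figure D5:**
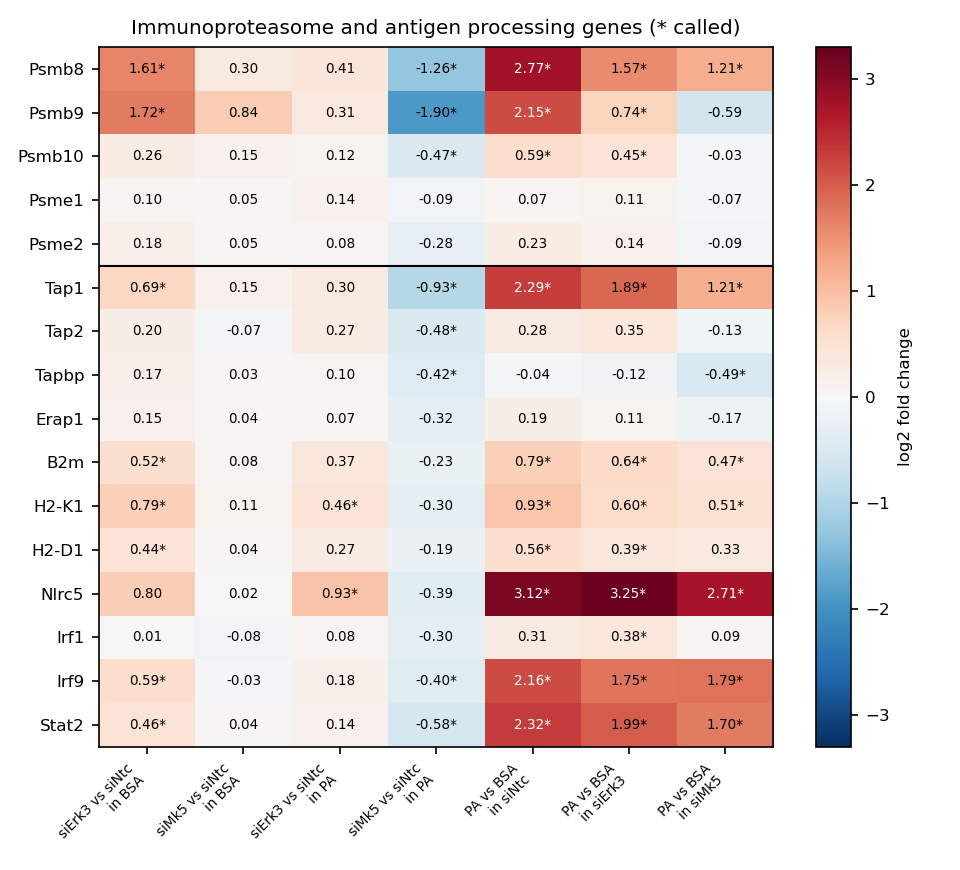
Log2 fold changes, as colour and number, of the 5 immunoproteasome genes (above the line) and 11 genes of antigen processing and interferon signalling (below it) in 7 comparisons along the horizontal axis, with called values marked by an asterisk. In the siMk5 PA column all 16 values are below 0, and in the siErk3 BSA column all 16 are above 0, with 8 called.

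The genes that work with the constitutive proteasome, shuttles, ubiquitin genes, unfolding factors and the regulators of proteasome transcription, were a list of 24, of which 23 were measured. None of the 23 was called by edgeR or DESeq2 in the 4 comparisons of silencing with siNtc (1 to 2 had an unadjusted p under 0.05). With PA 13 of the 23 rose in siNtc, 12 in siErk3 and 11 in siMk5, against 15.5%, 15.8% and 15.1% of all genes called higher. Nfe2l1, which encodes the factor Nrf1 that induces proteasome genes, averaged 598 ± 13.9 CPM in siNtc BSA and 849 ± 13.1 in siNtc PA (SD, n = 3) and rose by 0.50 ± 0.04, and Ddi2, the protease that activates it, rose by 0.51 ± 0.05. Nfe2l2 rose by 0.97 ± 0.06, the segregase gene Vcp by 0.61 ± 0.04 and Rad23b, a ubiquitin shuttle, by 0.54 ± 0.04. The summed markers of myoblasts and proliferation were 834 to 897 CPM in the BSA libraries and 335 to 448 in the PA libraries. Of the 8 muscle markers 5 fell with PA in siNtc, where 15.1% of all genes were called lower. Of the 3 immune markers measured, Csf1r fell with PA in siNtc (FDR 0.0234) and siErk3 (FDR 0.0181) and Cd68 rose in siMk5 (FDR 0.0305). The shares of all genes called in those directions were 15.1%, 16.3% and 15.1%. Csf1r rested on 1 to 16 counts per library and Cd68 on 11 to 37. The part of these markers in the PA results was not tested.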

How the data were processed

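RNA of 18 C2C12 libraries was sequenced by the study after poly(A) selection with a stranded kit. Read pairs per gene were counted and deposited by the authors as raw counts, without normalization. Per the file headers they used featureCounts 2.0.0 with the Ensembl annotation 105 on GRCm39, strand setting 2, primary alignments and a mapping quality of at least 3. The study's methods name STAR as the aligner. The labels list mm10 instead, and coordinates here are those of the count table. A pair overlapping exons of 2 genes on 1 strand was left unassigned, and near-identical genes can share reads. The second deposited table, of log2 values, was not used.

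Groups and replicate numbers came from the sample titles. The fits used the 21772 of 55414 genes whose counts summed to 10 or more (21601 of them with a GENCODE symbol). Counts were fitted with edgeR 4.0.16 (TMM, limma 3.58.1, R 4.3.3) as 1 quasi-likelihood model with a coefficient per group, FDR by Benjamini-Hochberg over all genes, and a gene was called with an FDR below 0.05 and a fold change above 1.3, the criteria of the study's methods, which used DESeq2. DESeq2 1.42.0 was an alternative, beside other normalization and filters, no Rn18s-rs5, fewer libraries and a replicate block. Ratios of paired subunits used counts plus 0.5 per exon length and an exact permutation test (scipy 1.17.1). The fits were tested on simulated data. Counts from 13041979 to 28496727 per library set the precision, which is low for Psmb9, and intervals cover counting error only.

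The text names the immunoproteasome genes and their constitutive counterparts, every called member, the highest and lowest of a class, called genes of both lists of non-members, and Mapk6, Mapkapk5 and Rn18s-rs5. Members and lists were chosen with earlier results of these data known, and some genes of the lists of non-members and markers are not reported here. The other partners and markers named were on those lists. Replicate numbers were not used to pair the libraries, and no 2 libraries of a group agreed within sampling noise.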

Additional observations from a re-analysis of the deposited data

Results flagged for a closer look

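In the interaction test of edgeR with the count filter, 0 of the 49 proteasome members passed, and other settings called 1 to 3 of them. Of the 11 antigen processing and interferon genes, 3 passed that test for siMk5, against 0.211% of all genes. Each of the 3 had a lower PA effect than in siNtc. The PA effect in siMk5 minus that in siNtc was -0.613 on the log2 scale for Stat2 (FDR 0.00314), -1.08 for Tap1 (FDR 0.0169) and -0.448 for Tapbp (FDR 0.0323). Stat2 and Tap1 rose with PA in both, Tap1 by 2.29 ± 0.14 in siNtc and by 1.21 ± 0.15 in siMk5 (SE). Tapbp stood at -0.04 ± 0.07 in siNtc and fell by 0.49 ± 0.07 in siMk5, and its interaction was not called with the stricter edgeR filter (FDR 0.0688) or in 8 of the 12 fits that left out 1 library (siNtc BSA replicates 1 and 3, siMk5 BSA replicates 2 and 3, siNtc PA replicates 1 and 2, siMk5 PA replicates 1 and 2, FDR from 0.0581 to 0.170). The interaction of Tap1 was not called without siNtc BSA replicate 2 or 3, siMk5 BSA replicate 3 or siMk5 PA replicate 2 (FDR from 0.0593 to 0.114).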

How the results depend on the processing

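The number of members called in siErk3 BSA against siNtc BSA was 2, and it was 1 with DESeq2, 1 with only the libraries compared, and 1 to 2 when single libraries were left out, where Psmb9 rests on 3 to 18 counts per library. In siMk5 PA against siNtc PA it was 3, and 1 to 3 with single libraries left out. With the FDR alone the calls for PA against BSA were 38 in siNtc, 40 in siErk3 and 35 in siMk5, in place of 13, 16 and 13, as the fold criterion removes small differences. The interactions, with 0 members called, gave 1 in siErk3 without the count filter, and in siMk5 1 with DESeq2, 3 without the count filter and 0 to 1 with single libraries left out. The cause was not tested. Over 180 results for single genes, 2598 alternatives were computed. Of these 2469 kept direction and side of the threshold, 112 lost a call, 12 gained one and 5 changed sign. The 180 results were the 5 immunoproteasome genes in all 11 comparisons, and other members and listed partners only where called in the main fit. Those other genes could lose a call and not gain one, so the counts of lost and gained calls depend on this choice. The sign changes were all in values that were not called: with single libraries left out, Psme1 ranged from -0.0224 to 0.0846 in siMk5 BSA against siNtc BSA, and in siMk5 PA against BSA Psmb10 ranged from -0.19 to 0.0391 and Psme1 from -0.11 to 0.00207. The median of the immunoproteasome genes minus that of the constitutive subunits was 0.26 in siErk3 BSA and -0.46 in siMk5 PA. It ranged from 0.18 to 0.37 and from -0.63 to -0.38 with single libraries left out. In siMk5 BSA this difference of medians was 0.20 (0.11 to 0.32 with single libraries left out), a range that overlaps that of siErk3 BSA. In siErk3 PA it was 0.11 (0.07 to 0.20).

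Libraries of the same replicate number deviated together with mean correlations from -0.44 to 0.37 over 9332 genes, and in no comparison did all 3 pairs exceed 0.1, so the numbers were not used as pairs. A fit with the replicate block kept the call of all 180 gene results, and left the number of members called as it was, at 2 for siErk3 under BSA, 3 for siMk5 under PA, 0 for the other two silencing comparisons and 13, 16 and 13 for PA in siNtc, siErk3 and siMk5.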
